A study of Homo sapiens with 9 samples.

Results

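The Notch receptors NOTCH1, NOTCH2 and NOTCH3, their ligands JAG1, JAG2, DLL1 and DLL3, and the target genes HES1, HEY1 and HEY2 were followed in MDA-MB435S cells that carried an empty vector (EV), wild-type WWOX (WWOX) or the WFPA mutant of WWOX (WFPA). The members are all probe sets that the array annotation assigns to 1 of these 10 genes alone, which gave 29 of the 54613 probe sets tested. The 10 genes are part of 19775 genes that have a probe set of their own. NOTCH1, NOTCH3, JAG2, DLL1, HEY1 and HEY2 had 2 probe sets each, HES1 had 3, NOTCH2 and DLL3 had 4 each, and JAG1 had 6. One more probe set carries NOTCH2 together with its partial copies NOTCH2NLA, NOTCH2NLB, NOTCH2NLC and NOTCH2NLR and was not counted.

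The parent line, MDA-MB435S, derives from a metastatic melanoma. Total RNA was read on 9 Affymetrix U133 Plus 2.0 arrays, 3 for each group. WWOX is a tumor suppressor that binds partner proteins through WW domains, and the WFPA mutation lies in the first of them, so WFPA cells ask what the protein does when that binding is disturbed. According to the methods, the WWOX and WFPA cells were stable lentiviral clones selected with G418. The labels do not say how the EV cells were made or selected, how many clones a group holds or whether the 3 arrays of a group came from separate cultures, so p-values measure only the spread between these arrays. The labels also contradict each other. The characteristics list wild-type WWOX as the vector content of the EV arrays and none for the WWOX arrays, and wox+ appears in the EV titles. Groups were taken from the titles.

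All values are log2 intensities, and a level is compared only with the same probe set on other arrays. A change is the difference of group means from limma, with its 95% interval and a p-value adjusted over all probe sets tested. To be called, a probe set needed a 2-fold change, which is 1 on the log2 scale, together with an adjusted p under 0.05. WWOX cells were compared with the average of the EV and WFPA means, called the EV-WFPA average here, and with each group. In probe set names, _s_at marks probes shared by several transcripts and _x_at marks probes that may also bind unrelated ones. The RNA came from whole cultures, so fewer cells that express a gene and less RNA per cell cannot be told apart. The WWOX gene itself, at the probe set with the highest mean, read 8.94 ± 0.284 (SD, n = 3 arrays) in EV cells, 10.24 ± 0.118 in WFPA cells and 10.66 ± 0.276 in WWOX cells. The 4 other WWOX probe sets did not all have this order. At 221147_x_at the means were 4.49, 7.64 and 8.18 in EV, WFPA and WWOX cells, at 219077_s_at 3.91, 5.50 and 5.13, and at 210695_s_at 5.98, 5.98 and 6.11, whereas 223747_x_at read 9.11, 8.38 and 8.87, with a change from EV to WFPA of -0.73 (limma adjusted p = 0.0433). Within a group, arrays correlated with r between 0.9875 and 0.9959 across probe sets. The lowest values, 0.9875 and 0.9895, were those of WWOX replicate 3 with the other WWOX arrays. Every other pair reached at least 0.9929, so WWOX replicate 3 was the array least like its group. The lower quartile of an array lay between 4.23 and 4.34, and 1 member probe set, a dim one of HEY2, had its mean below that.

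Notch receptors are cut when a Jagged or Delta ligand on a neighbouring cell binds them. The freed intracellular part enters the nucleus, joins the DNA-binding protein RBPJ and a Mastermind coactivator, and switches on genes of the HES and HEY families, which encode transcriptional repressors. In the pigment cell lineage, Notch signalling through HES1 is known to maintain melanoblasts and melanocyte stem cells, and Notch receptors are often active in melanoma.

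RBPJ reads a short core, TGGGAA on one strand and TTCCCA on the other, and the promoters of HES1 and HEY2 are shown because these genes rose and hold that core. The sequences are those of RefSeq for assembly GRCh38.p14, plus strand, from 250 bases before the start site to base 3 of the transcript. Capitals mark the core on either strand.
HES1, chr3:194135898-194136150: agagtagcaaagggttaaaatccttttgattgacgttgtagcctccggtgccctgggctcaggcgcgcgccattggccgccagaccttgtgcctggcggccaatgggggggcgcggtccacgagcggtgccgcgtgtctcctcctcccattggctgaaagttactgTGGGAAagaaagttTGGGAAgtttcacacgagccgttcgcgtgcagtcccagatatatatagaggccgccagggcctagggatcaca
HEY2, chr6:125749382-125749634: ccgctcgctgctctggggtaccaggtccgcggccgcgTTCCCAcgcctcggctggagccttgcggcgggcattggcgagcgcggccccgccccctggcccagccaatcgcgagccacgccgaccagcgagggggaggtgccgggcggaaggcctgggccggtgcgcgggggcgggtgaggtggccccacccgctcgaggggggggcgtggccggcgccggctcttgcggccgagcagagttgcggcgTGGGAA
In a window of 250 bases before to 50 after the start, HES1 held 2 cores, both on the strand of the gene, at -84 to -79 and at -70 to -65. HEY2 also held 2, at -213 to -208 on the opposite strand and at -3 to 3 on its own strand, over the start itself. The longer form GTGGGAA, which contains the core, matched 1 of the HES1 and both of the HEY2 cores. Of 27305 RefSeq promoters of this length, 24.3% held at least 1 core and 3.81% at least 2, and the longer form was found in 6.28%. NOTCH1, NOTCH2, NOTCH3, JAG1 and JAG2 had no match in this window. Promoters of HEY1, DLL1 and DLL3 were not read here. A match describes these letters only and is not a measured binding site.

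**Figure D1:**
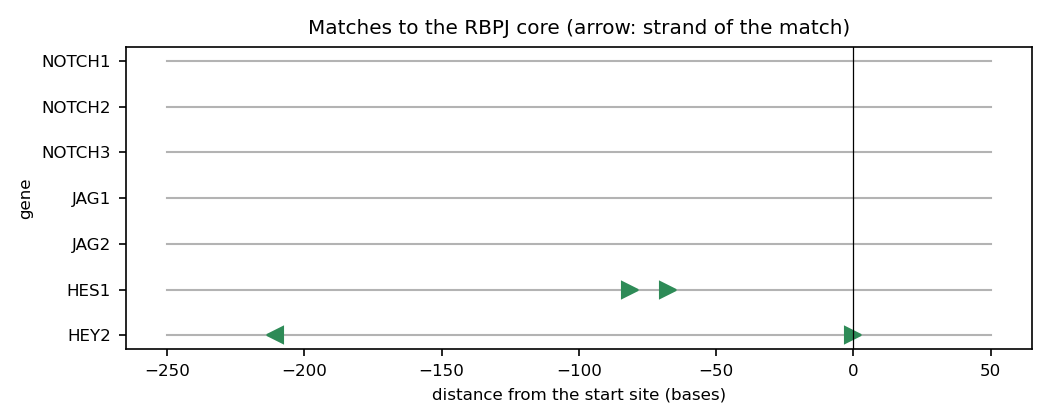
Position of the RBPJ core (TGGGAA or its complement) in the promoters of the 7 members read, as distance from the start site in bases (x axis), 1 line per gene (y axis), with arrows pointing in the direction of the strand. HES1 holds 2 matches, the farther at -84 to -79, and HEY2 holds 2, the nearer at -3 to 3.

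The calls among the members were all in the targets, and all were rises in WWOX cells. Of the 29 probe sets, 3 were called higher in WWOX cells than the EV-WFPA average, against a background of 1.46% of all probe sets, and all 3 belong to HES1 and HEY2. None was called lower, where the background was 1.77% (12 of the 29 had an unadjusted p under 0.05 in either direction, and a plain 1-way model also called 3). Against EV, 4 were called higher (1.66% of all), from HES1, HEY1 and HEY2, and none lower (1.64%). Against WFPA, 2 were called higher (1.51%), 1 of HES1 and 1 of HEY2, and none lower (2.47%). Here 13 and 10 members had an unadjusted p under 0.05, and the plain model called 2 and 2. At the 4-fold limit of the methods, or with Bonferroni adjustment, no member was called in any comparison. The comparisons share the WWOX arrays and are not independent. Between WFPA and EV no member was called by limma or by the plain model, where 1.26% of all probe sets were called higher and 0.474% lower in WFPA cells, and 5 members had an unadjusted p under 0.05. The share of all probe sets with an unadjusted p under 0.05 is not given here, so counts at that limit have no background.

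Without the fold limit, 8 of 29 members passed the adjusted p in WWOX cells against the EV-WFPA average, 5 higher and 3 lower, beside 16.3% of all probe sets. Against EV 6 passed (11.8% of all), against WFPA 6 (16.3%), and between WFPA and EV 1 (6.64%). In the last comparison the 1 was a HES1 probe set. The median change of the 29 against the EV-WFPA average was 0.13, and over all probe sets it was 0.03. By role, the median was 0.83 over the 7 target, 0.09 over the 14 ligand and 0.11 over the 8 receptor probe sets. All 3 WWOX arrays lay above the 6 others at 4 of 29 members (8.19% of all probe sets) and below them at 2 (8.87%).

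HES1 encodes a basic helix-loop-helix repressor and is the best known direct target of Notch. At its brightest probe set, 203395_s_at, the EV arrays read 8.10, 8.06 and 8.14, the WFPA arrays 8.16, 8.28 and 7.69, and the WWOX arrays 9.27, 8.98 and 8.98. Every WWOX array lay above the 6 others, and EV and WFPA arrays overlapped. WWOX cells were higher than the EV-WFPA average by 1.01, or 2.01-fold (standard error 0.134, interval 0.71 to 1.31, limma adjusted p = 0.00112), and higher than WFPA cells by 1.03 (2.05-fold, interval 0.68 to 1.38, adjusted p = 0.00215). Against EV the change was 0.98, or 1.98-fold (adjusted p = 0.00364), just short of the fold limit. These changes stand at the limit itself. The call against the average was lost without EV replicate 2, WFPA replicate 3 or WWOX replicate 1. Across the 9 fits that leave out an array the change ranged over 0.91 to 1.07, with an adjusted p under 0.05 in all 9. Median centring of the arrays also ended it. The call against WFPA was lost without WFPA replicate 3 or WWOX replicate 1. WFPA cells differed from EV by -0.05 (interval -0.40 to 0.30, adjusted p = 0.913).

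A second HES1 probe set, 203394_s_at, read 5.79, 6.00 and 6.07 in EV cells, 6.69, 6.56 and 6.94 in WFPA cells and 7.44, 7.57 and 7.17 in WWOX cells. The groups were stepped, with no overlap between any of them. WWOX cells lay 1.44 above EV (2.71-fold, standard error 0.142, interval 1.12 to 1.76, limma adjusted p = 0.000244), a call kept whichever array was left out. They lay 1.05 above the EV-WFPA average (2.07-fold, adjusted p = 0.000535), a call lost without WWOX replicate 2, and 0.66 above WFPA (1.58-fold, adjusted p = 0.0132). WFPA cells in turn were 0.78 above EV (1.72-fold, adjusted p = 0.0122, interval 0.46 to 1.10), under the fold limit. The HES1 probe sets therefore gave different values for the WFPA mutant, -0.05 at the brighter and 0.78 at the second. The remaining one, 203393_at, was dim and had means of 4.24 ± 0.116, 4.62 ± 0.195 and 4.53 ± 0.168 in EV, WFPA and WWOX cells, near the lower quartile of the arrays, and no change passed (adjusted p from 0.14 to 0.672).

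HEY2, a HES-related repressor known from heart and vessel development, was called higher in WWOX cells in all 3 comparisons, also in every fit that left out an array. Its probe set 222921_s_at read 6.12, 5.53 and 5.91 in EV cells, 5.77, 5.72 and 5.60 in WFPA cells and 6.94, 7.24 and 6.88 in WWOX cells. The WWOX arrays stood above all 6 others, whereas EV and WFPA arrays overlapped. WWOX cells were higher by 1.25 than the EV-WFPA average (2.37-fold, standard error 0.137, interval 0.94 to 1.56, limma adjusted p = 0.000366), by 1.17 than EV (2.25-fold, adjusted p = 0.0016) and by 1.33 than WFPA (2.51-fold, adjusted p = 0.000616). Across the 9 fits without an array, these changes ranged over 1.14 to 1.32, 1.01 to 1.30 and 1.22 to 1.39. WFPA differed from EV by -0.16 (interval -0.51 to 0.20, adjusted p = 0.671). The other probe set, 219743_at, was the dim one, at 3.23, 3.30 and 3.02 in EV cells, 3.30, 2.95 and 3.43 in WFPA cells and 4.56, 3.41 and 3.64 in WWOX cells. There WWOX replicate 1 stood apart from the other 8 arrays, and the change of 0.67 did not pass (adjusted p = 0.0859).

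HEY1, which encodes a further repressor of this family, was called higher in WWOX than in EV cells at both of its probe sets. The brighter, 44783_s_at, read 7.78, 7.68 and 8.23 in EV cells, 8.53, 8.51 and 8.95 in WFPA cells and 9.53, 9.25 and 8.54 in WWOX cells. EV arrays lay below all others, but WWOX and WFPA arrays overlapped. WWOX cells were 1.21 above EV (2.31-fold, standard error 0.256, interval 0.63 to 1.79, limma adjusted p = 0.0158) and 0.45 above WFPA (interval -0.13 to 1.03, adjusted p = 0.271), and WFPA was 0.76 above EV (interval 0.18 to 1.34, adjusted p = 0.13). Against the EV-WFPA average the change of 0.83 passed the adjusted p (0.0343) at 1.77-fold, and it still did in 3 of 9 fits that left out an array. The second, 218839_at, read 7.20, 6.58 and 7.40 in EV cells, 7.68, 7.72 and 7.93 in WFPA cells and 8.43, 8.36 and 7.62 in WWOX cells, with WWOX 1.08 above EV (2.11-fold, interval 0.51 to 1.65, adjusted p = 0.0249). At both, WWOX replicate 3 was the lowest of its group, inside the WFPA range at the first and below all WFPA arrays at the second. The calls against EV were lost without EV replicate 1, EV replicate 2, WWOX replicate 1 or WWOX replicate 2, with changes of 1.00 to 1.49 at the first and 0.84 to 1.34 at the second across the 9 fits, and the plain model made neither call. Without WWOX replicate 3, the first was also called against the EV-WFPA average, at 1.11.

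**Figure D2:**
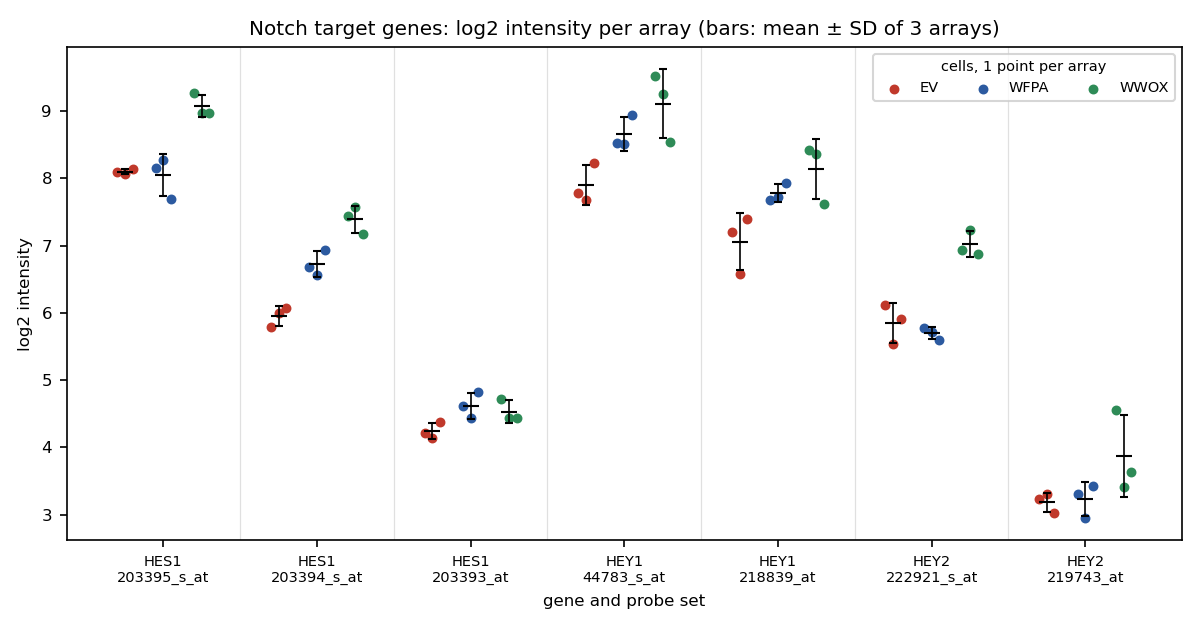
Log2 intensity (y axis) at the 7 probe sets of HES1, HEY1 and HEY2 (x axis), 1 point per array, in EV, WFPA and WWOX cells. Black bars give each group's mean with its SD (n = 3 arrays). At HEY2 222921_s_at the WWOX arrays lie from 6.88 to 7.24 and the 6 others from 5.53 to 6.12, whereas at HEY1 44783_s_at the WFPA arrays, 8.51 to 8.95, overlap those of WWOX.

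Among the ligands JAG1, the Jagged protein that binds Notch receptors on adjacent cells, was the member that went the other way. At its brightest probe set, 216268_s_at, EV arrays read 10.75, 10.69 and 10.37, WFPA arrays 11.02, 10.95 and 10.84, and WWOX arrays 10.24, 10.19 and 9.78. The WWOX arrays lay below the 6 others, and the WFPA arrays above all EV arrays. WWOX cells were lower than WFPA by 0.87 on the log2 scale (1.82-fold, standard error 0.148, interval of the change -1.20 to -0.53, limma adjusted p = 0.0044), and their change against the EV-WFPA average was -0.70 (1.62-fold lower, adjusted p = 0.00617). Against EV it was -0.53 (1.45-fold lower, adjusted p = 0.0486). None of these reached the 2-fold limit, so JAG1 was not called. Against the average and against WFPA the adjusted p stayed under 0.05 whichever array was left out, but against EV only in 2 of 9 such fits.

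The other bright JAG1 probe sets had the same order of group means. At 209099_x_at the means were 10.45 in EV cells, 10.72 in WFPA cells and 10.01 in WWOX cells, a change of -0.58 against the EV-WFPA average (adjusted p = 0.00768) and of -0.71 against WFPA (adjusted p = 0.00552). At 231183_s_at the means were 9.87, 10.20 and 9.48, with -0.55 (adjusted p = 0.0115) and -0.72 (adjusted p = 0.00646). WFPA lay above EV by 0.33, 0.27 and 0.33 at these 3, with adjusted p-values of 0.269, 0.302 and 0.21. The probe sets read 1 gene and are not replicates of each other. The other 3 were dimmer, with means from 6.14 to 6.59 in every group, and gave changes of 0.07, -0.17 and 0.11 against the EV-WFPA average, none of which passed.

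**Figure D3:**
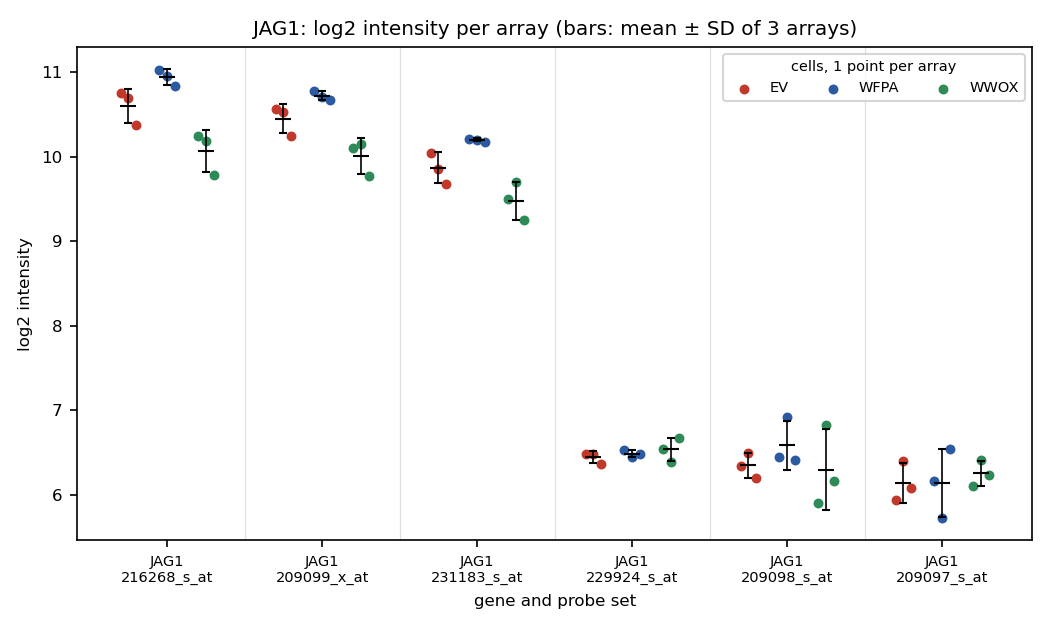
Log2 intensity (y axis) at the 6 JAG1 probe sets (x axis), 1 point per array, in EV, WFPA and WWOX cells. Black bars give each group's mean with its SD (n = 3 arrays). In the 3 bright probe sets WWOX means are 10.07, 10.01 and 9.48, below those of EV and WFPA, and the 3 dim ones lie near 6 to 7 with overlapping groups.

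No other ligand was called. JAG2, the second Jagged ligand, read 6.92 in EV cells, 6.86 in WFPA cells and 6.86 in WWOX cells at 32137_at, so that WWOX differed from EV by -0.06 (interval -0.36 to 0.24) and from WFPA by 0.01 (interval -0.29 to 0.30). DLL1, a Delta ligand that activates receptors on neighbouring cells, read 6.60, 6.39 and 6.65 at 227938_s_at, with a change of 0.26 against WFPA (limma adjusted p = 0.174). DLL3, a divergent Delta protein that acts mainly inside the cell as an inhibitor of Notch, had 4 probe sets, and in all 4 the WWOX mean was the highest of the 3 groups. At 219537_x_at the EV arrays read 6.83, 6.80 and 6.66, the WFPA arrays 6.69, 6.76 and 6.80, and the WWOX arrays 6.94, 7.05 and 7.04, the last above all others. This 1.19-fold difference from the EV-WFPA average (0.25, interval 0.08 to 0.42) passed with an adjusted p of 0.0486, and neither comparison with a single group did (0.106 against EV, 0.0733 against WFPA). With an array left out it passed in 1 of 9 fits. At the brightest DLL3 probe set, 230568_x_at, the means were 8.90, 8.80 and 9.03, and the change was 0.18.

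No receptor probe set was called or passed the adjusted p in any of the 4 comparisons. In limma the lowest adjusted p among the 8 was 0.0933 against the EV-WFPA average, 0.0836 against EV, 0.141 against WFPA, and 0.307 between WFPA and EV. An unadjusted p under 0.05 was found for 2, 3, 1 and 0 of them, and the plain model called none. NOTCH1 at 218902_at read 8.54, 8.35 and 8.36 in EV cells, 8.55, 8.75 and 8.42 in WFPA cells and 8.72, 8.92 and 8.68 in WWOX cells. Its WWOX arrays lay above the EV arrays and overlapped with those of WFPA, and the difference from EV was 0.36 (interval 0.10 to 0.62, adjusted p = 0.0836). Any change of NOTCH1 at this probe set beyond 0.62 thus lies outside the interval. At its second probe set the difference from EV was 0.06.

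NOTCH2 read 11.88, 11.70 and 11.78 in EV cells, 11.95, 12.07 and 11.93 in WFPA cells and 12.11, 12.05 and 11.90 in WWOX cells (212377_s_at). WWOX differed from EV by 0.23 (interval 0.02 to 0.45, limma adjusted p = 0.167) and from WFPA by 0.03 (interval -0.18 to 0.25). The NOTCH2 probe sets did not point one way, since 210756_s_at read 8.23, 8.08 and 7.92 and 202445_s_at 7.97, 8.29 and 7.96 in EV, WFPA and WWOX cells. The probe set shared with the NOTCH2NL copies read 9.90, 10.16 and 10.09. NOTCH3 at 203237_s_at read 6.35, 6.08 and 6.20 in EV cells, 6.19, 6.08 and 5.91 in WFPA cells and 6.20, 6.32 and 6.57 in WWOX cells. The EV arrays overlapped with both other groups, and the WWOX arrays lay just above those of WFPA. It differed between WWOX and WFPA by 0.31 (interval 0.02 to 0.59, adjusted p = 0.141), and its second probe set gave -0.05.

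**Figure D4:**
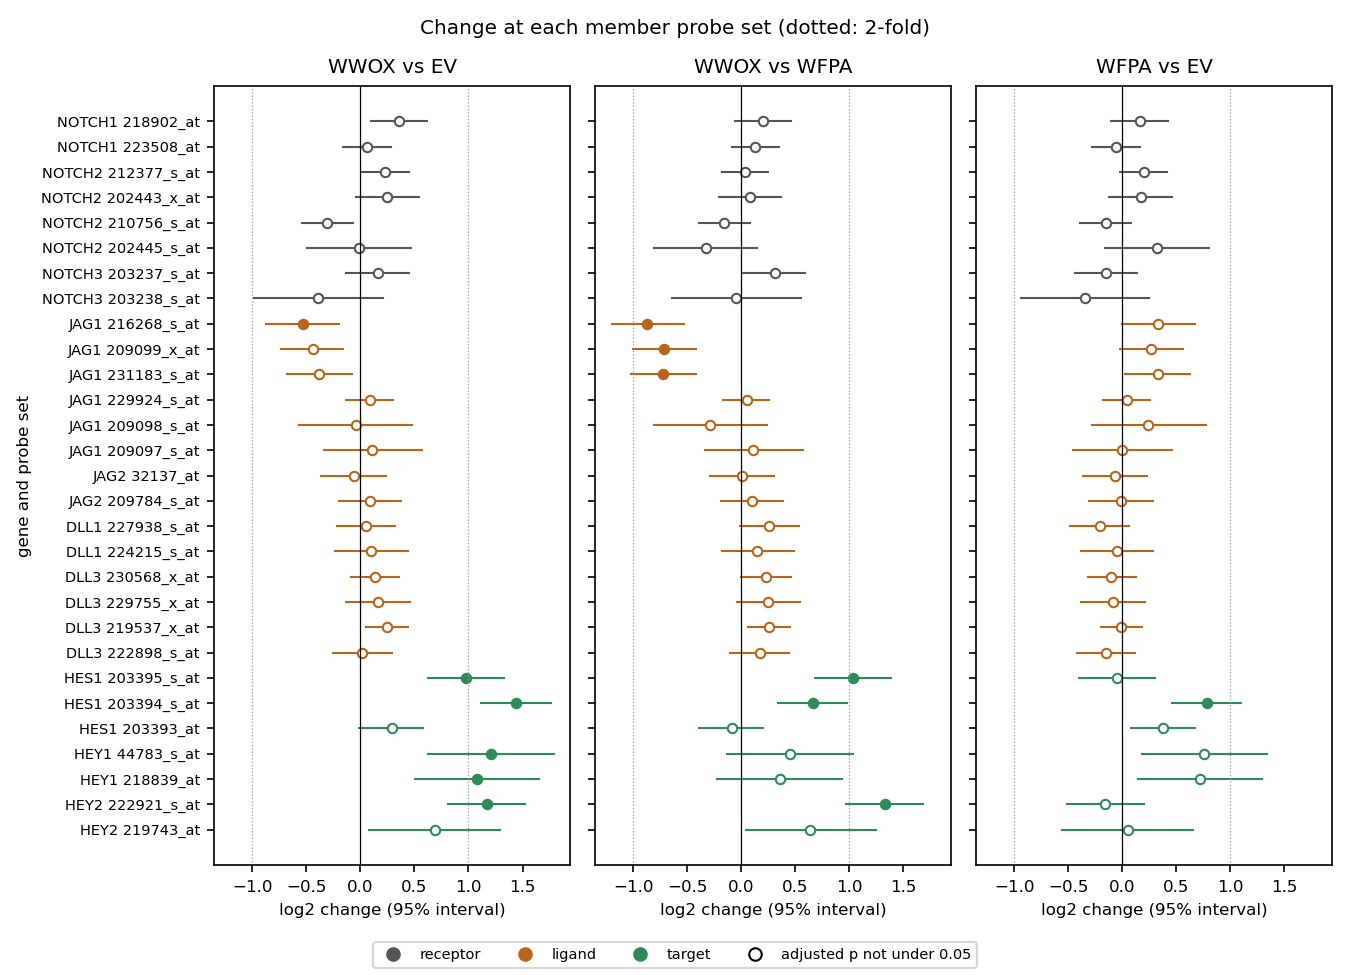
Log2 change with its 95% interval (x axis) at each of the 29 member probe sets (y axis) for WWOX against EV, WWOX against WFPA and WFPA against EV, with filled points where the adjusted p is under 0.05 and dotted lines at 2-fold. Receptors stay between -0.39 and 0.36, the filled ligand points are those of JAG1 with changes from -0.87 to -0.53, and HES1, HEY1 and HEY2 reach 1.44, 1.21 and 1.33.

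Of 69 further genes of the pathway, 65 had a probe set of their own, and each was read at the brightest one. In WWOX cells 1 was called higher and 1 lower than the EV-WFPA average, and these counts were the same against EV. Over all probe sets, 1.46% were called higher and 1.77% lower than the average, and 1.66% and 1.64% against EV. The counts thus lie near the background, though these shares cover all probe sets and the genes were read at their brightest. Against WFPA none was called by limma or by the plain model (1.51% higher and 2.47% lower over all). In that comparison 34 of the 65 had an unadjusted p under 0.05, a count without a background here. Of them, 9 passed the adjusted p higher and 9 lower, beside 16.3% of all probe sets in either direction. WFPA cells had 1 gene higher than EV and none lower (1.26% and 0.474% of all probe sets). The median change of the 65 was 0.07 against the EV-WFPA average, and that of all genes was 0.04. MAML2, a Mastermind coactivator of the Notch complex, was the gene called higher in both WWOX and WFPA cells than in EV. It read 5.80, 6.49 and 6.24 in EV cells, 7.93, 8.02 and 8.27 in WFPA cells and 8.21, 7.77 and 8.47 in WWOX cells. WWOX lay 1.97 above EV (limma adjusted p = 0.000468) and WFPA 1.90 above EV (adjusted p = 0.00118), and WWOX and WFPA differed by 0.08 (adjusted p = 0.841). Against the EV-WFPA average the change was 1.02, and that call ended (adjusted p = 0.268) when EV and WFPA were fitted as 1 group.

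MYC, a growth regulator that Notch can induce, was the gene called lower. It read 9.94, 10.13 and 9.59 in EV cells, 9.79, 9.55 and 9.78 in WFPA cells and 8.68, 8.67 and 8.81 in WWOX cells, so that the WWOX arrays lay below all others. Its change was -1.08 against the EV-WFPA average (limma adjusted p = 0.000458), -1.17 against EV (adjusted p = 0.000866) and -0.99 against WFPA (adjusted p = 0.00173), the last just under 2-fold. It thus moved opposite to HES1 and HEY2. Of the other genes listed with the targets, HES6 and BHLHE41 passed the adjusted p under 2-fold, with changes of 0.71 and 0.70 against the EV-WFPA average. HES6 did not pass against EV (0.45, limma adjusted p = 0.0758), and BHLHE41 did not pass against WFPA (0.46, adjusted p = 0.103). Whether Notch drives either gene in these cells was not tested. NRARP, which limits Notch signalling and is itself a target, read 6.48, 6.38 and 6.59 in EV, WFPA and WWOX cells, HES4 6.91, 6.95 and 7.13, and HEYL 7.38, 7.31 and 7.63, and none of these passed. The genes named here and among the proteases, glycosyltransferases and cofactors that were not called were chosen after their values were seen.

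Of 8 proteases that cut the receptors, none was called, and 4 passed the adjusted p against the EV-WFPA average, all higher in WWOX cells, beside 16.3% of all probe sets in either direction (5 had an unadjusted p under 0.05). That share covers all probe sets, not only the brightest of each gene. Against EV only ADAM10 and PSEN2 passed, and FURIN (0.23, adjusted p = 0.301) and APH1B (0.35, adjusted p = 0.0585) did not. ADAM10, which sheds the receptor's outer part, read 12.37, 12.33 and 12.79 in EV, WFPA and WWOX cells, a change of 0.44 (limma adjusted p = 0.0025). PSEN2, a catalytic subunit of gamma-secretase, changed by 0.61 (adjusted p = 0.00132), its partner APH1B by 0.35 (adjusted p = 0.0241), and FURIN, which processes the receptor precursor, by 0.39 (adjusted p = 0.0417). PSEN2 also changed by -0.46 from EV to WFPA (adjusted p = 0.0233), and WWOX cells lay 0.38 above EV (adjusted p = 0.0343). Of the other gamma-secretase genes, APH1A and PSENEN did not pass. NCSTN read 8.48, 8.86 and 8.46 in EV, WFPA and WWOX cells. It was lower in WWOX than in WFPA cells by 0.39 (adjusted p = 0.0244), but differed between WWOX and EV by only -0.01 (adjusted p = 0.951). ADAM17, a further sheddase, read 10.85, 11.24 and 10.95, and was higher in WFPA cells than in EV by 0.38 (adjusted p = 0.0428). Among the enzymes that add sugars to the receptors, EOGT was higher by 0.70 (adjusted p = 0.00125), whereas LFNG, a Fringe enzyme that alters which ligands a receptor answers to, read 7.92 in EV cells, 7.99 in WFPA cells and 7.10 in WWOX cells (-0.85, adjusted p = 0.00778). In the transcription complex 4 of 19 genes passed in each direction against the EV-WFPA average. The higher ones were the coactivators MAML2 and KAT2B (0.52) and the corepressors TLE1 (0.42) and KDM5A (0.56). The lower ones were the coactivator SNW1 (-0.31) and the corepressors CTBP2 (-0.50), HDAC1 (-0.41) and TLE4 (-0.47). KDM5A was also higher in WFPA cells than in EV by 0.58 (adjusted p = 0.00983), and WWOX differed from WFPA by 0.27 (adjusted p = 0.112). Nor did SNW1 pass against WFPA (-0.18, adjusted p = 0.186). HDAC1 (-0.30, adjusted p = 0.0559) and TLE4 (-0.33, adjusted p = 0.223) did not pass against EV. RBPJ read 12.15, 11.97 and 12.05 and did not pass in any of the 3 comparisons of WWOX cells. None of the 6 other receptors and ligands, NOTCH4 and DLL4 among them, was called by limma or the plain model or passed the adjusted p in any comparison, and 1, 1, 3 and 0 had an unadjusted p under 0.05.

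**Figure D5:**
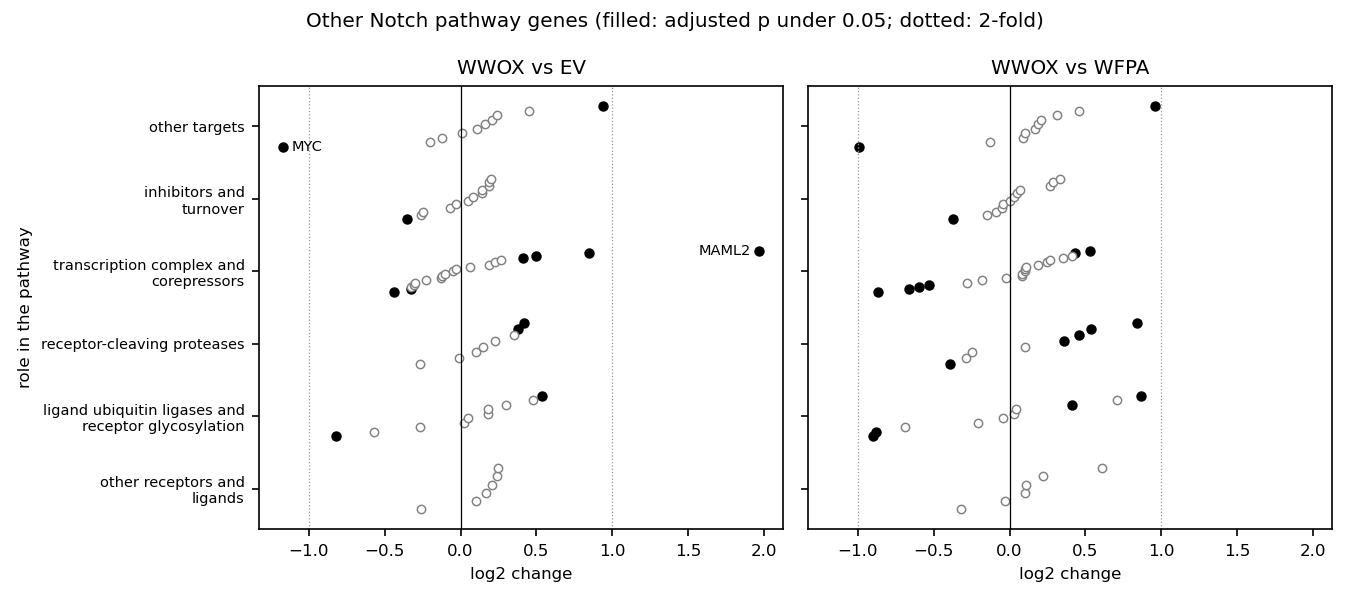
Log2 change (x axis) of 65 further pathway genes grouped by role (y axis), 1 point per gene, for WWOX against EV and WWOX against WFPA, filled where the adjusted p is under 0.05, with dotted lines at 2-fold. MAML2 at 1.97 and MYC at -1.17 lie beyond 2-fold against EV, and no gene does against WFPA.

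The genes whose pattern over the 9 arrays was most like that of a member were found by the root mean square (RMS) difference of log2 values, each gene centred on its own mean. They are given for the receptor, ligand and target with the widest range of group means at the brightest probe set of a gene. For NOTCH1, with a range of 0.36, these were HIPK3 (RMS 0.0726), CREB3L2 (0.0761) and C5orf24 (0.0808). For JAG1 (range 0.87) they were IPO5 (RMS 0.0934), TTC27 (0.101) and CPEB3 (0.111), and IPO5 read 11.74, 12.19 and 11.28 in EV, WFPA and WWOX cells. For HEY2 (range 1.33) they were APOD (RMS 0.12), CDON (0.127) and MANSC1 (0.128). APOD read 4.38 in EV cells, 4.34 in WFPA cells and 5.53 in WWOX cells, CDON read 6.86, 6.58 and 8.07, and MANSC1 9.66, 9.65 and 10.82.

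Some markers of cell types also differed between the groups, not all in the same pattern, and others were not called. Of 9 melanocyte genes read, 4 were called higher in WWOX cells against the EV-WFPA average. SOX10 read 4.89, 5.33 and 10.55 in EV, WFPA and WWOX cells, S100B 5.55, 6.31 and 12.23, MIA 7.48, 7.61 and 9.79, and MITF, the master regulator of the lineage, 11.87, 11.40 and 13.43. PAX3 read 9.96, 10.21 and 10.33. The pigment genes TYR, PMEL and MLANA lay between 4.38 and 5.91 in every group, below the array medians of 6.03 to 6.05, TYRP1 lay under the lower quartile, and none of them was called. Summed over the list, linear intensity ran from 5020 to 5300 in EV arrays, 4200 to 4420 in WFPA arrays and 18700 to 21300 in WWOX arrays. Such a sum rests mostly on the brightest genes, and the median change of the 9 against the EV-WFPA average was 0.31.

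The 10 endothelial markers, of interest since HEY2 is also a vessel gene, summed to 372 to 390 in EV arrays, 366 to 373 in WFPA arrays and 418 to 500 in WWOX arrays, with KDR, TIE1 and EMCN under the lower quartile and ERG the one called higher (1.04, limma adjusted p = 0.0153). The 8 epithelial markers went from 11400 to 12400 in EV and 9880 to 11500 in WFPA to 3960 to 4410 in WWOX arrays, with KRT8, KRT18 and CDH1 called lower than the EV-WFPA average. That sum rests mostly on KRT18, which read 13.39, 13.14 and 11.74 in EV, WFPA and WWOX cells. EPCAM, KRT5, KRT14, KRT19 and CLDN4 were not called, and the median change of the 8 was -0.05. CDH1 read 4.67, 7.78 and 4.54 in EV, WFPA and WWOX cells, so that it was higher in WFPA cells than in EV by 3.11 (limma adjusted p = 1.43e-05) and differed between WWOX and EV by -0.12 (adjusted p = 0.696). The 8 fibroblast markers ran from 417 to 480, 537 to 567 and 706 to 711 in EV, WFPA and WWOX arrays, with COL1A2 and LUM called higher, and the 6 leukocyte markers read ran from 3100 to 3390, 2260 to 2560 and 1110 to 1480, with PTPRC called lower. COL1A2 read 5.74, 7.27 and 7.86 and PTPRC 9.88, 7.67 and 5.48, and both were also called between WFPA and EV. The median change against the EV-WFPA average was 0.15 for the endothelial, 0.08 for the fibroblast and -0.03 for the leukocyte list. The part of these markers in the changes of HES1, HEY1, HEY2 and JAG1 was not tested.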

How the data were processed

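RNA of MDA-MB435S cells was read on 9 arrays, 3 each of EV, WFPA and WWOX cells. Calibration and normalization of the scans were done by the authors with Partek Genomics Suite 6.5, which gave the deposited log2 intensities. The background correction and normalization method are not given in the sources used here, and nothing further was applied. The file holds 54675 probe sets, of which 62 array controls were left out. Of those tested, 41091 carry 1 gene, 1801 several and 11721 none in the platform annotation. Where 1 value per gene is given, it comes from the single-gene probe set that was brightest on average across arrays.

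Group means were fitted in limma 3.58.1 (R 4.3.3), with 6 residual and 3.04 prior degrees of freedom, and 4 comparisons were made with Benjamini-Hochberg adjustment over all probe sets tested. The methods' limits, 4-fold and Bonferroni adjustment, were alternatives, as were limma-trend, a robust prior, an unmoderated 1-way model (the plain model), filters on dim probe sets, other scaling, EV and WFPA as 1 group, the replicate block, each array left out and other choices of probe set. The fit was tested on simulated data. Members and lists were chosen with earlier results of these data known. Named are all members, other pathway genes called in any comparison, melanocyte markers, called genes of other marker lists, and for each role 3 genes of like pattern. Pathway genes and markers named beyond these, which were called in no comparison, were chosen after their values were seen. Promoter motifs were searched and figures drawn with Python 3.11.15, pandas 2.3.3, numpy 2.4.6 and matplotlib 3.10.9. The number of arrays limits the precision.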

Additional observations from a re-analysis of the deposited data

How the results depend on the processing

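Of 236 alternative values of the 11 called gene values, which include those of MAML2 and MYC, 192 kept their call and 44 lost it. None changed sign, but alternatives in the model, the filter or the limits leave the log2 change as it was. Without the fold limit a call could not be lost. The counts of member probe sets called were 3 against the EV-WFPA average, 4 against EV, 2 against WFPA and 0 between WFPA and EV. With a 4-fold limit or Bonferroni adjustment, all counts were 0. With no fold limit they were 8, 6, 6 and 1, and with the plain model the count against EV was 2. Leaving out 1 array gave 2 to 4, 2 to 5, 1 to 2 and 0. The count against EV fell to 2 without EV replicate 1, EV replicate 2 or WWOX replicate 1, and that against WFPA to 1 without WFPA replicate 3 or WWOX replicate 1. For arrays with the same replicate number, the correlation of their deviations from the group means lay between -0.0521 and 0.0348. Whether such arrays were handled together is not stated. With the replicate block the counts were 3, 3, 2 and 0.

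Among values that were not called, 24 of 816 changed sign and 14 became called. With the probe set of largest variance, NOTCH2 gave -0.17, -0.01 and -0.33 against the average, EV and WFPA, NOTCH3 gave -0.22, -0.39 and -0.05, and HES1 gave 0.78 between WFPA and EV. With the mean of all probe sets, NOTCH2 gave -0.03 against the average and -0.09 against WFPA, NOTCH3 -0.11 against EV, JAG2 0.03 against the average and 0.01 against EV, and HES1 0.37 between WFPA and EV. With 1 array left out, JAG2 ranged over -0.07 to 0.04, -0.14 to 0.08, -0.08 to 0.05 and -0.15 to 0.08 in the 4 comparisons, changing sign without EV replicate 1 in the first, second and last (0.04, 0.08 and 0.08), without WFPA replicate 2 in the last (0.02) and against WFPA (-0.08), and against WFPA also without WWOX replicate 3 (0.00), as with median centring (0.00). DLL1 ranged over -0.01 (without WWOX replicate 3) to 0.09 against EV, NOTCH2 over -0.01 (without WWOX replicate 1) to 0.09 against WFPA, MAML2 over -0.09 (without WWOX replicate 3) to 0.27 against WFPA, and HES1 over -0.17 to 0.13 (without WFPA replicate 3) between WFPA and EV. Apart from those that rest on another probe set, the cause was not tested.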
